A study of Homo sapiens with 12 samples.

Results

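A549 cells that expressed GFI1 and had been forced into suspension for 48 hours were compared with control A549 cells that stayed attached. The comparison was between floating GFI1 and attached control cells, 3 libraries each, so it held 6 of the 12 RNA-Seq libraries of the series. The other 6 libraries, 3 of attached GFI1 cells and 3 of floating control cells, were used to show by which step a gene reached its final level. Floating GFI1 cells differed from attached control cells both in genotype (GFI1 overexpression against control) and in treatment (suspension against untreated), so the combined change cannot be assigned to either factor from these 6 libraries alone. A549 is an established human lung adenocarcinoma line that grows attached to the dish, and both genotypes were grown in RPMI1640 with 10% FBS. GFI1 was delivered by a lentiviral vector with an hPGK promoter and a GFP marker, and transduced cells were sorted for GFP before RNA-Seq. The labels do not say whether the RNA-Seq controls carried an empty vector. Nor do they say whether the 3 libraries of a group came from separate cultures, so p values measure only the spread between these libraries, which may be technical.

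GFI1 is a zinc-finger transcriptional repressor of blood cell development that recruits histone-modifying complexes to its target genes. Epithelial cells read their contact with the extracellular matrix through integrins, which connect laminins and collagens to the actin cytoskeleton and pass signals to the ERK pathway and to YAP. Cells that lose this contact usually stop dividing and may die by anoikis, and packed floating cells often run short of oxygen and glucose.

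Total counts ranged from 17014188 to 20748677 in the 12 libraries, and 17829 of 58735 genes were tested. The first principal component held 69.8% of the variance and separated the genotypes, and the second held 12.7% and separated attached from floating libraries. Floating GFI1 replicate 3 stood apart from its group on the second component, at -13.6 against -20.6 and -23.9, on the side of the attached libraries. Replicates 2 and 3 of that group also differed most among all pairs of replicates, with a chi-square of 11.8 per gene against 2.01 to 4.99 in the other pairs. Floating GFI1 replicate 2 was high and replicate 3 low in several hypoxia genes. All 13 markers of A549 cells (keratins, EPCAM, and aldehyde and NRF2-driven enzymes) were detected in each group, with a summed level of 33384 to 35195 TMM-scaled CPM (counts relative to the size of the library) in attached control and 20863 to 23448 CPM in floating GFI1 libraries. The 20 blood cell markers summed to 54.4 to 58.5 CPM in attached control and 108 to 139 CPM in floating GFI1 libraries, with CD3D, CD3E and PTPRC, defining markers of T cells and of leukocytes, at 0 counts in all libraries of both groups. GATA1, HBA1, HBB, LYZ and MS4A1 were at 0 in attached control only, and CD33 and CD34 in floating GFI1 only. Of the 6 blood cell markers tested for change, 4 were higher and 2 lower at an adjusted p of 0.05. The shares of all tested genes were 33.7% and 34.7%. Their log2 changes ran from -1.77 to 2.76. The 10 endothelial markers summed to 63.9 to 74.3 and 98.1 to 103 CPM, with KDR at 0 in floating GFI1 libraries and CDH5 at 0.0574 to 0.119 and 3.58 to 4.43 CPM, and the 10 fibroblast markers to 19.9 to 23.0 and 15.4 to 19.96 CPM, with DCN and FAP at 0 in both. The part of other cell types in the results was not tested.

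Floating GFI1 cells ended further from attached control cells than either single change carried them. The root mean square distance in log2 CPM from the attached control mean was 1.08, 1.09 and 1.04 in the 3 floating GFI1 libraries. It was 0.964 to 0.966 in attached GFI1 libraries and 0.524 to 0.534 in floating control libraries. All adjusted p values below come from the quasi-likelihood fit of edgeR, corrected by the Benjamini-Hochberg method, with a threshold of 0.05. In the combined comparison 12210 of 17829 genes (68.5%) passed it. Of these, 6015 (33.7% of those tested) were higher and 6195 (34.7%) lower. A change of at least 2-fold as well was reached by 4073 genes, or 22.8%, of which 2220 (12.5%) were higher and 1853 (10.4%) lower, and a log2 change of at least 5 by 120 genes (0.673%). Without any correction for composition, by library size only, 60.1% rather than 49.3% of the called genes were higher and the median of all genes moved from 0.018 to 0.17 on the log2 scale. Changes below are relative to the TMM scaling. The single steps changed fewer genes, with 62.3% of genes called for GFI1 in attached cells, 31.3% for suspension in GFI1 cells, 40.1% for suspension in control cells and 60.4% for GFI1 in floating cells. These comparisons share libraries with the combined one, so their values are given side by side and not as independent support.

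GFI1 itself had 0.238, 0.543 and 0.631 CPM in attached control and 545, 706 and 430 CPM in floating GFI1 libraries. The gene lies at chr1:92474762-92486876 on the minus strand of GRCh38. The groups were far apart, with a log2 change of 10.18 ± 0.20 (SE, adjusted p = 2.0e-23). As GFI1 was delivered by the vector, its rise was set by the design. Counts per gene do not separate transcripts of the vector from those of the cells' own gene. Attached GFI1 libraries held 290 ± 4.40 CPM (SD, n = 3) and floating control libraries 0.624 ± 0.125 CPM (SD, n = 3), so GFI1 rose again by 0.95 on the log2 scale when GFI1 cells were floated. RASGRP2, a guanine nucleotide exchange factor for Rap1 that the study followed, lies at chr11:64726911-64745456 on the minus strand. It had 1.61, 1.19 and 0.918 CPM in attached control and 18.6, 19.1 and 17.1 CPM in floating GFI1 libraries. Its groups did not overlap and its log2 change was 3.88 ± 0.17 (SE, adjusted p = 1.9e-16), or 14.7-fold. It rose by 4.36 with GFI1 in attached cells and fell by 0.48 from there in suspension.

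The genes furthest apart were chosen among those whose library values did not overlap between the groups, a condition that 70.6% of all tested genes met. The 10 protein-coding genes that rose most were GFI1, GBP4, CSF3R, XAF1, KLRC4-KLRK1, IDO1, KLRC4, KLRC3, FRY and LGALS9C. GBP4, an interferon-induced GTPase, had 0 counts in the 3 attached control libraries and 3.14, 4.19 and 3.88 CPM in floating GFI1 libraries. Against a floor of 3 counts over the 3 control libraries together it was at least 65.7-fold higher. CSF3R, the receptor of the granulocyte growth factor G-CSF, was also at 0 in attached control and at 3.70, 4.08 and 2.69 CPM in floating GFI1 libraries, which is at least 60.7-fold higher. XAF1, an interferon-induced antagonist of the apoptosis inhibitor XIAP, had 1 count over the attached control libraries and 488 over the floating GFI1 libraries, a ratio of 456 (exact 95% interval 81.4 to 18032, counting error only). IDO1, which degrades tryptophan, went from 1 count to 256, a ratio of 239 (42.5 to 9477).

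Among the natural killer receptor genes, KLRC4 lies within the readthrough gene KLRC4-KLRK1 on the same strand, and KLRC3 lies next to them. They share sequence, so their separate values are uncertain. KLRC3 had 0.0596, 0.0543 and 0 CPM in attached control and 5.57, 6.67 and 5.72 CPM in floating GFI1 libraries. FRY, a large scaffold protein of cell shape and division, had 0.0596, 0 and 0.0574 against 5.85, 7.66 and 3.98 CPM. LGALS9C, a galectin gene whose reads may be split with its close copies LGALS9 and LGALS9B, had 0.179, 0.217 and 0.459 against 35.2, 32.3 and 34.1 CPM, with a log2 change of 6.86 ± 0.19 (SE). Each of these 10 genes had also risen with GFI1 in attached cells, which for GFI1 itself was set by the vector.

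At the other end, under the same condition of no overlap, stood DEFB1, KRT4, ANXA3, EVA1A, TRIML2, FGA, RGMB, CST1, AP1M2 and ITIH2. ANXA3, a phospholipid-binding annexin, had 64.9, 57.4 and 63.7 CPM in attached control and 0.386, 0.606 and 0.0995 CPM in floating GFI1 libraries (log2 change -7.42 ± 0.17, SE). Both separate changes lowered ANXA3, by 4.13 with GFI1 in attached cells and by 2.68 with suspension in control cells. DEFB1, an epithelial antimicrobial peptide, went from 9.59, 9.18 and 7.06 CPM to 0, 0.0551 and 0 CPM, with a single count left over the 3 floating GFI1 libraries.

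KRT4, a keratin of stratified epithelia, fell from 25.5, 22.5 and 22.6 to 0.11, 0.0551 and 0.0497 CPM (log2 change -8.24 ± 0.30, SE). AP1M2, a sorting adaptor of polarized epithelial cells, fell from 33.7, 34.2 and 33.5 to 0.552, 0.441 and 0.348 CPM (-6.23 ± 0.14, SE). CST1, a secreted inhibitor of cysteine proteases, rose by 1.90 with suspension in control cells and ended at a log2 change of -6.27 ± 0.35 (SE). The plot of the 20 genes shows single libraries, and its groups stay apart because the genes were chosen without overlap.

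**Figure D1:**
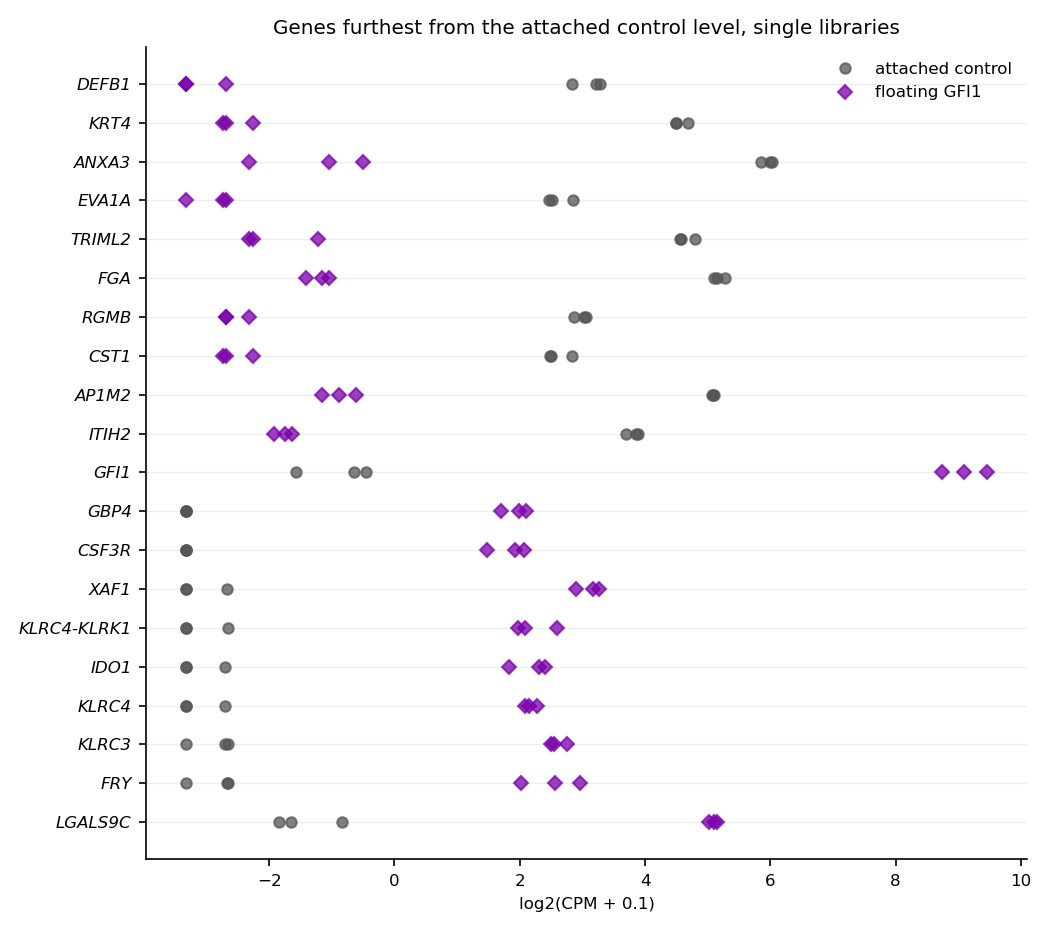
Levels of the 10 genes that rose most and the 10 that fell most between attached control (grey circles) and floating GFI1 (purple diamonds) libraries, as log2 of CPM plus 0.1 on the x axis, 1 point per library and 1 gene per row. In every row the 3 points of a group stay on their own side, which was a condition for choosing these genes. The leftmost points of GBP4 and CSF3R are libraries with 0 counts.

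Programmes were described with 28 gene lists, each by its members that rose or fell beside the shares of all tested genes, 33.7% higher and 34.7% lower. The type I interferon response stood furthest on the high side. Of 40 genes on the list 39 were tested, and 39 rose and 0 fell, 32 of them by at least 2-fold (against 22.8% of all genes), with a median log2 change of 2.68 against 0.018 over all genes. Interferon-stimulated genes are switched on through a sequence element in their promoters and encode antiviral proteins. BST2, which tethers budding virus to the cell surface, had 1.49, 1.14 and 1.03 CPM in attached control and 33.6, 28.5 and 36.9 CPM in floating GFI1 libraries (log2 change 4.76 ± 0.16, SE, adjusted p = 3.9e-19). IFI6, a mitochondrial antiviral protein, had 9.77, 8.85 and 6.89 against 154, 140 and 190 CPM (4.25 ± 0.11, SE). In both the groups did not overlap.

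The interferon genes had reached this height before suspension. Their median change was 2.75 with GFI1 in attached cells (39 of 39 higher, against 29.5% of all genes higher and 32.8% lower), 0.25 with suspension in control cells (15 higher and 4 lower, against 19.6% and 20.5%) and -0.17 with suspension in GFI1 cells (2 higher and 14 lower, against 15% and 16.3%). MX1, a GTPase that traps viral nucleocapsids, held 57.4 CPM on average in attached GFI1 and 35.9, 30.8 and 48.7 CPM in floating GFI1 libraries. Floating GFI1 replicate 3, the library nearest to the attached GFI1 libraries, was the highest of its group for BST2, IFI6 and MX1. Without it the median of the list was 2.45.

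Promoter sequences of the list were searched for the element of interferon-stimulated genes. Members were chosen as known genes of this kind, so a high share of matches follows from that choice and is not a result of these data. RefSeq promoters (GRCh38.p14, 250 bases before to 50 after the start) were found for 31 of the 39 tested interferon genes, and 19 (61.3%) held the element made of GAAA, NN and GAAA in a row, where N is any base, on either strand, against 3.65% of 27305 promoters. Matches of the element can overlap each other. The windows below belong to the 4 members with the highest combined change whose match lies before the start, and capitals mark the element. They lie at chr19:17405742-17405769 (minus strand, BST2), chr11:313991-314018 (plus, IFITM1), chr1:27672330-27672357 (minus, IFI6) and chr14:94110619-94110646 (plus, IFI27, with the element on the opposite strand). The first matched base stands at -130, -40, -156 and -108 from the start.
BST2: cctttctggGAAACTGAAActgaaaacc
IFITM1: aaacagcagGAAATAGAAActtaagaga
IFI6: gagagagggGAAAATGAAActctgcaga
IFI27: tgtctgcagTTTCGGTTTCctggaaaat
IFITM1 encodes a membrane protein that blocks virus entry, and IFI27 a mitochondrial protein. Their log2 changes were 4.66 and 4.13. The match describes these letters only, and binding was not measured here.

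Antigen presentation by MHC class I followed the same path, and 20 of 20 members rose (13 by at least 2-fold, median 1.58). HLA-B, a class I heavy chain whose reads may be split with its close paralogues, had 4.17, 3.69 and 4.48 CPM in attached control and 75.6, 80.9 and 80.1 CPM in floating GFI1 libraries (4.26 ± 0.09, SE). B2M, the shared light chain, had 353, 354 and 330 against 874, 831 and 914 CPM (1.34 ± 0.04, SE). NLRC5, the transactivator of these genes, had 11.9, 14.3 and 13.3 against 59.6, 54.0 and 59.9 CPM (2.13 ± 0.07, SE). In all 3 the groups did not overlap. The median of the list was 1.48 with GFI1 in attached cells and 0.18 with suspension in control cells.

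As a list, the hypoxia response reached its level mainly by the other step. Oxygen-dependent hydroxylases mark HIF subunits for decay, and in low oxygen HIF turns on genes of angiogenesis, pH control and glycolysis. Of 27 members 22 rose, 2 fell (PLOD2 and EGLN1, the latter not called by library size only) and 3 did not pass the test (HILPDA, DDIT4 and JMJD6), with a median of 1.21. Suspension alone gave a median of 1.06 in control cells (26 higher, 0 lower) and 1.11 in GFI1 cells (25 higher, 0 lower). GFI1 in attached cells gave 0.28, with 14 members higher and 9 lower.

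CA9, a carbonic anhydrase at the cell surface and the most changed member, had 0.298, 0.326 and 0.459 CPM in attached control and 20.5, 28.9 and 11.2 CPM in floating GFI1 libraries (5.77 ± 0.36, SE, adjusted p = 1.8e-13). CA9 rose by 3.07 with GFI1 in attached cells and by a further 2.71 with suspension of GFI1 cells. Suspension in control cells raised it by 5.28. VEGFA, the angiogenic growth factor, had 56.0, 53.1 and 55.5 against 560, 752 and 419 CPM (3.39 ± 0.13, SE), with a rise of 2.11 through GFI1 and a further 1.29 through suspension of GFI1 cells. NDRG1, a stress-responsive gene of differentiation, had 41.7, 40.8 and 44.0 against 891, 1708 and 432 CPM. In all 3 genes floating GFI1 replicate 2 was highest and replicate 3 lowest, and both lay far above the attached control libraries. The log2 change of NDRG1 was 4.58 in all libraries, 3.98 without replicate 2 and 4.94 without replicate 3.

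PLOD2, a collagen lysyl hydroxylase, was the member that went furthest down, from 305, 299 and 300 to 132, 153 and 122 CPM (-1.15 ± 0.06, SE). Suspension raised it by 0.28 in control and by 0.47 in GFI1 cells, and GFI1 lowered it by 1.62 in attached cells. LOX, a collagen crosslinking oxidase, had 6.91, 6.84 and 6.66 CPM in attached control and 26.6, 55.0 and 9.60 CPM in floating GFI1 libraries. Its log2 change of 2.15 was 1.40 without floating GFI1 replicate 2. The median of the list ran from 0.98 to 1.45 when each of the 6 libraries was left out.

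RefSeq promoters were found for 22 of the 27 hypoxia genes, and 12 of them (54.5%) held ACGTGC or GCGTGC on either strand, against 18.8% of all 27305. These members too were chosen as known hypoxia genes, so their share of matches follows from that choice. Matches on opposite strands may overlap. The windows of the 4 members with the highest combined change among those with a match (for LOX, the first of its matches) lie at chr9:35673898-35673925 (plus strand, CA9), chr1:203026362-203026389 (plus, PPFIA4), chr5:173328630-173328657 (minus, STC2) and chr5:122078360-122078387 (minus, LOX). Capitals mark the match, which starts at -19, -118, -232 and -117 from the gene's start.
CA9: tcgtttccaatGCACGTacagcccgtac
PPFIA4: gcgctctcgtcACGTGCccggacccgag
STC2: ctcatacacacGCACGCaaacgcgtggc
LOX: ctgtccgccttGCACGTttccaatcgca
PPFIA4, which encodes a liprin scaffold protein, had 1.73, 1.57 and 1.72 CPM in attached control and 32.3, 35.6 and 23.8 CPM in floating GFI1 libraries (4.18 ± 0.15, SE). STC2, a secreted glycoprotein also on the stress list, had 43.5, 44.0 and 46.4 against 305, 425 and 214 CPM (2.82 ± 0.14, SE).

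The medians of glycolysis had opposite signs for the separate changes. Over 23 genes the median was -0.23 with GFI1 in attached cells, where members were split with 10 higher and 11 lower, and 0.32 with suspension in control cells (16 higher and 1 lower), and it ended at 0.64, with 15 members higher and 7 lower. SLC2A1, the main glucose transporter, had 192, 198 and 200 CPM in attached control and 626, 809 and 545 CPM in floating GFI1 libraries (1.75 ± 0.08, SE), and PFKFB4, which makes an activator of phosphofructokinase, had 7.74, 7.98 and 7.46 against 60.5, 87.4 and 41.9 CPM (3.03 ± 0.18, SE). LDHA, which turns pyruvate into lactate, rose less (0.77 ± 0.06, SE).

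The members on the low side belonged to the same chain of reactions. PFKM, the muscle form of phosphofructokinase, fell from 79.8, 84.0 and 80.3 to 16.7, 18.1 and 15.8 CPM (-2.27 ± 0.07, SE), and ENO1, the main enolase, from 3361, 3405 and 3284 to 1236, 1285 and 1267 CPM (-1.41 ± 0.04, SE). PGK1, phosphoglycerate kinase, stood at 818, 781 and 773 CPM in attached control and 818, 993 and 682 CPM in floating GFI1 libraries, with overlapping groups. Its change of 0.07 ± 0.07 (SE, adjusted p = 0.41) lay between a fall of 0.79 with GFI1 in attached cells and a rise of 0.86 with suspension in GFI1 cells.

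Immediate early transcription factors are turned on within minutes by growth factor and stress signals. Of 19 tested members 11 rose and 6 fell (median 0.42). FOS had 3.16, 5.27 and 4.19 CPM in attached control and 103, 80.4 and 101 CPM in floating GFI1 libraries (4.48 ± 0.14, SE). EGR1 had 1.67, 1.96 and 3.10 against 39.0, 43.1 and 29.2 CPM (4.04 ± 0.19, SE). Both rose in each step, FOS mainly in suspension (3.09 in GFI1 cells) and EGR1 in like measure by GFI1 (2.28) and suspension (1.76 in GFI1 cells). FOSL2, a FOS family member of longer-lived expression, fell from 281, 304 and 309 to 64.4, 81.5 and 58.8 CPM (-2.13 ± 0.07, SE).

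ERK output was described by the transcript levels of 20 genes that the ERK pathway drives, and these split, with 8 higher and 10 lower (median -0.20). The study reported raised ERK phosphorylation with GFI1 by immunoblot. Phosphorylation was not measured here, and these transcripts do not stand in for it. DUSP6, a phosphatase that limits ERK and is itself induced by it, had 8.04, 6.73 and 7.58 CPM in attached control and 33.0, 38.8 and 29.9 CPM in floating GFI1 libraries (2.18 ± 0.11, SE). SPRY2, another feedback inhibitor, also rose (1.42 ± 0.11, SE). SPRY4 of the same family fell (-0.90 ± 0.09, SE), as did ETV1, an ETS factor, from 10.3, 9.67 and 8.95 to 0.441, 0.717 and 0.597 CPM (-4.03 ± 0.21, SE). Suspension in control cells had moved the list up (median 0.49), and GFI1 in attached cells had moved it by -0.17. For GFI1 in floating cells the median was -0.049, with 7 higher and 9 lower, where 60.4% of all genes were called.

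**Figure D2:**
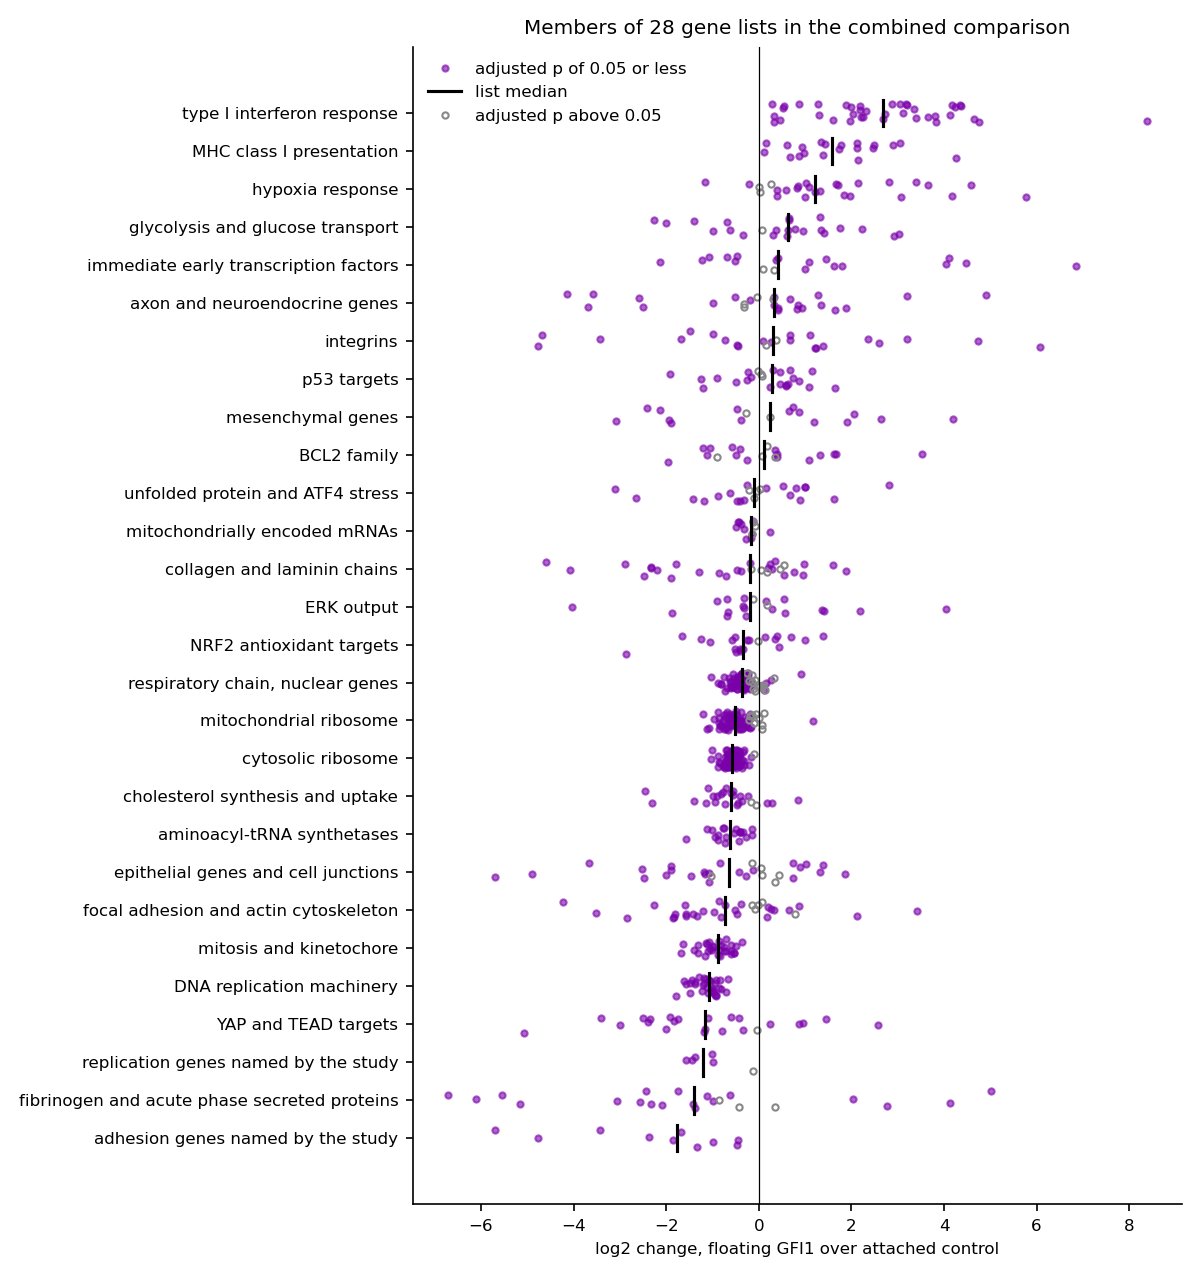
Log2 change between attached control and floating GFI1 cells (x axis) of each tested member of the 28 lists (rows, ordered by median), with filled points for an adjusted p of 0.05 or less, open points for the rest and a black bar at the list's median. Interferon and MHC class I members all lie above 0, replication, mitosis and aminoacyl-tRNA synthetase members all lie below 0, and integrins range from -4.77 to 6.07.

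Matrix adhesion fell as the study's own list measures it and split as a family. The study named 11 adhesion genes for their change with GFI1, not for the combined change given here. It drew on these samples, on GFI1-deleted H1155 cells and on GFI1 binding by ChIP-Seq. As these samples were among its sources, the direction of the genes is not independent evidence. The 10 tested members all fell (median -1.77), 7 of them by at least 2-fold. ITGB6, the integrin subunit that pairs with alpha V to bind latent TGF-beta, went from 8.10, 8.09 and 10.5 to 0.331, 0.276 and 0.348 CPM (-4.77 ± 0.24, SE). The integrin subunits ITGB8, ITGA6 and ITGA1 ended at log2 changes of -3.43 ± 0.42, -1.69 ± 0.06 and -0.98 ± 0.26 (SE). GBP1, a GTPase known mainly as interferon-induced, had 0.715, 1.03 and 1.09 against 0.165, 0.0551 and 0.298 CPM, and ACTN4, an actin crosslinker of focal adhesions, changed by -1.33 ± 0.04 (SE). The log2 change of GBP1 was -2.38 ± 0.47 (SE), -1.97 without floating GFI1 replicate 2 and -3.03 without replicate 3. ITGB1, the common beta subunit, fell by less, from 2539, 2534 and 2557 to 1795, 1816 and 1879 CPM (-0.47 ± 0.04, SE). FLNA, an actin crosslinker that anchors integrins, fell by 1.16 with GFI1 in attached cells and by a further 0.69 in suspension, to a log2 change of -1.85 ± 0.05 (SE).

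ITGA2, a collagen receptor subunit, had 54.9, 59.8 and 64.0 CPM in attached control and 38.2, 60.2 and 32.6 CPM in floating GFI1 libraries, so the groups overlapped, and its change was -0.45 ± 0.12 (SE, adjusted p = 0.0021). It was -0.75 without floating GFI1 replicate 2 and -0.28 without replicate 3, where it met the rule for a return given below along both routes. Suspension raised it by 1.28 in control cells and by 0.73 in GFI1 cells, against a fall of 1.19 with GFI1. CEACAM6, a cell surface adhesion protein, shows the reverse order of sizes. It was at 198, 187 and 192 CPM in attached control, at 419 CPM on average in floating control and at 3.03, 3.31 and 4.68 CPM in floating GFI1 libraries (-5.70 ± 0.09, SE).

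Across the whole integrin family, 13 of 24 tested subunits rose and 9 fell (median 0.32). ITGA11, a collagen receptor of mesenchymal cells, had 1.19, 1.09 and 2.12 CPM in attached control and 97.9, 98.6 and 98.9 CPM in floating GFI1 libraries (6.07 ± 0.11, SE). ITGA10, a collagen receptor of cartilage, had 4.82, 5.38 and 4.65 against 136, 133 and 126 CPM (4.73 ± 0.07, SE), and ITGA4, the lymphocyte homing subunit, 1.37, 1.30 and 1.26 against 10.8, 11.3 and 14.2 CPM (3.20 ± 0.19, SE). The median of the list ran from 0.20 to 0.52 when each library was left out.

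The medians of the cytoskeletal and YAP lists went down with GFI1 in attached cells and with suspension, and little with GFI1 in floating cells. The means of both lists were lower there too. Of 33 genes of focal adhesion and actin, 20 fell and 8 rose (median -0.73), from CALD1, an actin-binding regulator of contraction, at 176, 189 and 186 against 15.6, 14.1 and 18.0 CPM (-3.53 ± 0.06, SE), to TNS1, an integrin-actin connector, at 3.22, 5.59 and 4.36 against 42.5, 66.5 and 34.3 CPM (3.43 ± 0.20, SE). YAP is kept out of the nucleus when cells round up. Of its 23 targets 17 fell and 5 rose (median -1.16), and the separate medians were -0.36 with GFI1 in attached cells and -0.58 with suspension in control cells. With GFI1 in floating cells, where 60.4% of all genes were called, the median of YAP targets was -0.046 (10 higher, 9 lower). That of focal adhesion and actin was -0.145 (14 higher, 15 lower). Relative to attached control, means of the YAP list ran from -0.80 to -0.68 in floating control and from -1.18 to -0.98 in floating GFI1 libraries. Those of focal adhesion and actin ran from -0.50 to -0.45 and from -0.68 to -0.59.

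ANKRD1, a nuclear target of YAP and of mechanical load, went from 8.75, 9.12 and 7.86 to 0.165, 0.331 and 0.249 CPM (-5.07 ± 0.29, SE). CCN1, a secreted matrix protein, went from 49.2, 45.0 and 50.7 to 8.38, 9.37 and 9.75 CPM (-2.39 ± 0.08, SE). IGFBP3, which binds insulin-like growth factors, went the other way, from 543, 504 and 538 to 3125, 3755 and 2513 CPM (2.57 ± 0.09, SE). Of 30 collagen and laminin chains 10 rose and 15 fell (median -0.18). COL5A2, a fibrillar collagen, fell from 258, 252 and 261 to 14.2, 14.1 and 17.4 CPM (-4.07 ± 0.06, SE), and LAMB2, a basement membrane laminin, rose from 141, 150 and 141 to 439, 432 and 438 CPM (1.60 ± 0.04, SE).

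Epithelial identity fell mainly with GFI1. Of 30 genes of epithelium and cell junctions 17 fell and 7 rose (median -0.63), with a median of -0.48 for GFI1 in attached cells and 0.16 for suspension in control cells. CDH1, the adherens junction cadherin, had 118, 119 and 122 CPM in attached control and 4.25, 3.64 and 4.08 CPM in floating GFI1 libraries (-4.91 ± 0.07, SE). KRT8, a keratin of simple epithelia, fell from 5868, 5841 and 5598 to 1505, 1431 and 1698 CPM (-1.90 ± 0.05, SE). F11R, a tight junction protein, rose from 15.8, 15.2 and 15.6 to 58.5, 61.6 and 49.4 CPM (1.86 ± 0.08, SE).

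Of 17 tested mesenchymal genes, 8 rose and 7 fell (median 0.24). SNAI1, a repressor of CDH1, had 3.81, 2.34 and 2.70 CPM in attached control and 10.9, 12.2 and 13.5 CPM in floating GFI1 libraries (2.06 ± 0.15, SE). CDH2, the neural cadherin, fell from 29.9, 34.2 and 30.5 to 5.57, 5.79 and 6.37 CPM (-2.41 ± 0.09, SE), and VIM, the mesenchymal intermediate filament, from 449, 422 and 408 to 91.2, 128 and 74.3 CPM (-2.13 ± 0.10, SE). VIM had fallen further in attached GFI1 cells (by 3.09) and rose by 0.97 from there in suspension.

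Secreted liver-type proteins, which A549 cells make in part, moved down with GFI1 and up with suspension. Over 22 tested genes of fibrinogen and the acute phase the medians were -1.69 with GFI1 in attached cells and 0.70 with suspension in control cells, and the end state was -1.40, with 15 lower and 4 higher. FGA, the fibrinogen alpha chain, had 38.8, 34.2 and 35.6 CPM in attached control, 58.9 CPM on average in floating control and 0.386, 0.276 and 0.348 CPM in floating GFI1 libraries (-6.72 ± 0.15, SE). FGB and FGG, the beta and gamma chains, ended at -5.54 ± 0.18 and -5.16 ± 0.17 (SE). CP, the copper carrier ceruloplasmin, fell by 4.09 with GFI1 in attached cells, regained 1.66 in suspension and ended at 27.7, 29.4 and 26.9 CPM against 149, 157 and 145 CPM. C4B, a complement component whose reads may be split with its near-identical copy C4A, was among the 4 members that rose, from 0.179, 0.163 and 0.172 to 2.76, 2.92 and 3.58 CPM (4.12 ± 0.35, SE).

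Proliferation genes fell in both steps and added up. All 33 genes of the DNA replication machinery fell (median -1.07, 21 of them by at least 2-fold), with medians of -0.49 for GFI1 in attached cells and -0.68 for suspension in control cells. GINS2, a subunit of the replicative helicase, went from 44.2, 40.8 and 41.2 to 12.7, 11.9 and 12.1 CPM (-1.78 ± 0.08, SE). The study named MCM4, MCM5, MCM6, RFC4, DBF4 and BCL6 from these samples together with GFI1 ChIP-Seq. Their direction is therefore not independent evidence, and 5 of the 6 fell. MCM5, a helicase ring subunit, went from 140, 136 and 139 to 45.1, 42.5 and 51.4 CPM (-1.58 ± 0.06, SE). BCL6, a transcriptional repressor, was the exception in this combined comparison, at 19.3, 19.1 and 21.1 against 19.5, 16.9 and 18.5 CPM (-0.12 ± 0.08, SE, adjusted p = 0.18). The study named these genes for the change with GFI1. On that step all 6, BCL6 included, were lower in attached cells (against 32.8% of all genes) and in floating cells.

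All 30 genes of mitosis and the kinetochore fell as well (median -0.87), and the groups overlapped in 0 of them, where 70.6% of all genes did not overlap. AURKB, the kinase of the chromosomal passenger complex, went from 60.4, 63.7 and 66.2 to 20.4, 17.4 and 21.1 CPM (-1.69 ± 0.07, SE). Among p53 targets 13 of 24 rose and 8 fell, or 5 by library size only (median 0.28). TP53INP1, a stress-induced p53 cofactor, rose from 20.1, 22.5 and 23.6 to 67.1, 71.5 and 67.9 CPM (1.64 ± 0.06, SE), and PLK2, a centriole kinase, fell from 176, 177 and 173 to 45.9, 47.9 and 44.9 CPM (-1.92 ± 0.04, SE). CDKN1A, the cell cycle inhibitor p21, rose by 0.46 ± 0.05 (SE).

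The BCL2 family, which decides on release of mitochondrial death factors, was divided, with 8 of 20 higher and 8 lower. Its median of 0.12 changed sign when a library was left out (to -0.041 if attached control replicate 3 was dropped and to -0.069 if floating GFI1 replicate 2 was) and was 0.27 by library size only. BMF, a BH3-only death promoter tied to loss of anchorage, rose from 2.20, 1.36 and 1.32 to 19.2, 19.0 and 18.2 CPM (3.53 ± 0.15, SE), and BCL2L11, another BH3-only protein, by 1.62 ± 0.08 (SE). Of the protective members, MCL1 rose from 265, 272 and 268 to 647, 874 and 498 CPM (1.33 ± 0.11, SE), and BCL2 fell from 7.15, 6.79 and 7.35 to 2.15, 1.60 and 1.69 CPM (-1.97 ± 0.17, SE).

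Most genes of protein synthesis and mitochondria fell. Of 75 cytosolic ribosomal protein genes 74 fell and 0 rose (median -0.58), with a median of -0.46 for GFI1 in attached cells and -0.00 for suspension in control cells. RPS2, a small subunit protein with many processed copies in the genome, fell from 2290, 2118 and 2149 to 1058, 1157 and 979 CPM (-1.04 ± 0.05, SE). All 20 aminoacyl-tRNA synthetase genes fell (median -0.62), from YARS1, the tyrosyl enzyme (-1.57 ± 0.05, SE), upward. Of 74 mitochondrial ribosomal protein genes 64 fell and 1, MRPS6, rose (median -0.50). MRPS6 had 19.0, 14.9 and 17.9 CPM in attached control and 39.8, 46.5 and 31.2 CPM in floating GFI1 libraries (1.18 ± 0.11, SE), and MRPL12, a large subunit protein, fell furthest (-1.21 ± 0.12, SE).

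Of 76 nuclear respiratory chain genes 58 fell and 4 rose (median -0.35). NDUFA13, a complex I subunit, rose from 2.14, 3.37 and 2.18 to 5.79, 4.91 and 3.93 CPM (0.91 ± 0.22, SE). ATP5MC1, a subunit of the ATP synthase ring, went from 127, 118 and 122 to 59.2, 57.1 and 61.7 CPM (-1.04 ± 0.06, SE). The 13 mRNAs encoded in mitochondria moved least, with 9 lower, 1 higher and a median of -0.16, and none reached a 2-fold change. MT-CYB, the cytochrome b of complex III, was the member that rose (0.24 ± 0.05, SE). MT-CO3, a cytochrome oxidase subunit, had 7750, 7602 and 7018 CPM in attached control and 5188, 5290 and 5408 CPM in floating GFI1 libraries (-0.49 ± 0.05, SE). By library size only, the medians were -0.43 for the cytosolic and -0.35 for the mitochondrial ribosome, with 4 members of the latter higher, -0.20 for the respiratory chain, with 9 members higher, and -0.011 for the mRNAs encoded in mitochondria.

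Lipid, redox and stress lists ended between these extremes. Cholesterol synthesis and uptake fell with GFI1 and stayed there, with 20 of 25 lower and 3 higher (median -0.61, against -0.66 after GFI1 in attached cells). TM7SF2, a sterol reductase, rose by 0.86 ± 0.07 (SE). Among 21 NRF2 antioxidant targets 13 fell and 7 rose (median -0.35). AKR1B10, an aldo-keto reductase highly expressed in A549, fell from 3273, 2982 and 2988 to 408, 396 and 470 CPM (-2.86 ± 0.06, SE), and AKR1C1 of the same superfamily rose from 687, 655 and 620 to 1728, 1652 and 1785 CPM (1.40 ± 0.05, SE).

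The unfolded protein and ATF4 list had the median nearest to 0 among the lists pulled in opposite directions. GFI1 in attached cells gave -0.33, suspension in control cells 0.21, and the end state -0.11, which became 0.044 by library size only. Under that median 9 of 23 members had risen and 10 had fallen. DDIT3, the stress factor CHOP, rose by 0.80 ± 0.13 (SE), and PHGDH, which opens serine synthesis, fell from 54.9, 49.5 and 53.7 to 6.29, 6.34 and 5.82 CPM (-3.10 ± 0.08, SE). Of 40 axon and neuroendocrine genes, a group linked with small cell lung cancer, 26 were tested, with 14 higher and 8 lower (median 0.33). The mean of the list showed no such shift, at -0.0057 to 0.018 in floating GFI1 libraries relative to attached control. SEMA3C, a secreted guidance cue, fell from 225, 234 and 233 to 11.97, 11.96 and 14.97 CPM (-4.15 ± 0.06, SE).

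**Figure D3:**
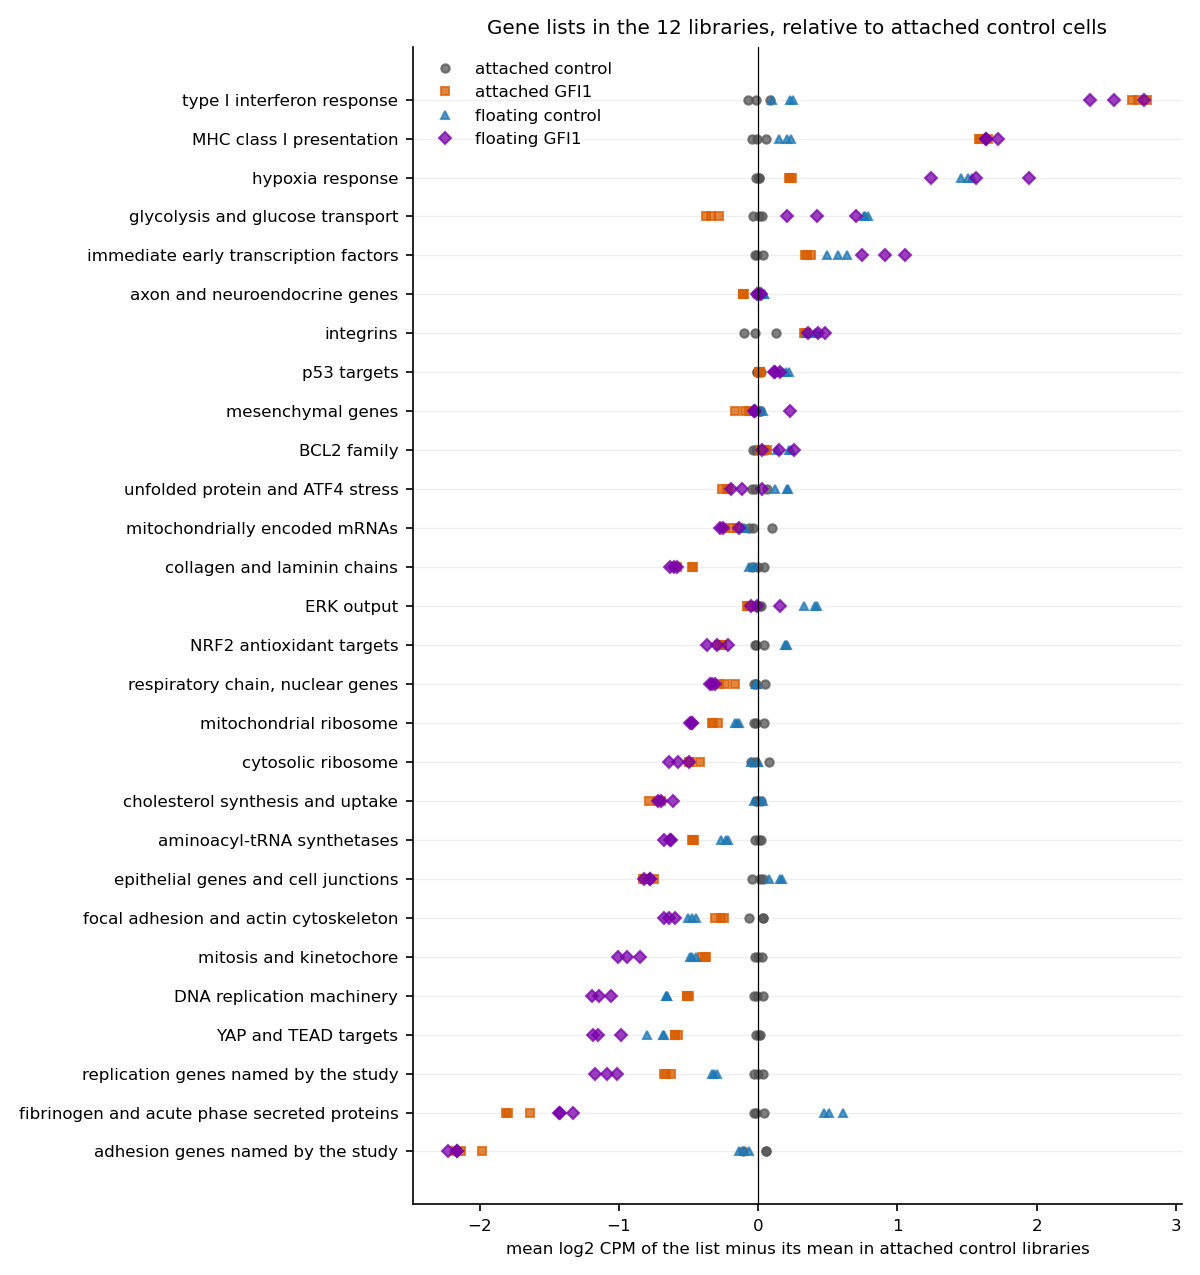
Mean log2 CPM of each of the 28 lists in each of the 12 libraries, minus the mean of the 3 attached control libraries, on the x axis, with 1 list per row and groups by colour and shape (attached control grey circles, attached GFI1 orange squares, floating control blue triangles, floating GFI1 purple diamonds). Interferon and MHC class I diamonds sit with the squares, hypoxia diamonds with the triangles, and replication and mitosis diamonds beyond both. The x values are means over members and can differ from the medians in the text.

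Return to the starting state was rare for single genes. A gene was counted as returned where the first step changed it by at least 2-fold, the second step changed it in the opposite direction and the 95% interval of its combined log2 change lay within 0.5 of 0. With GFI1 as the first step, 3247 genes (18.2%) changed by at least 2-fold and 390 of them (12%) moved back in suspension. Of all genes, suspension in GFI1 cells called 15% higher and 16.3% lower. By the whole rule 14 genes returned (0.431% of the first step and 0.0785% of all genes). With suspension as the first step, 909 genes (5.1%) changed by at least 2-fold, 297 (32.7%) moved back with GFI1 and 23 returned (2.53% and 0.129%). GFI1 in floating cells called 60.4% of all genes, and 48.5% of those called were higher. The shares moved back were thus near or below the shares of all genes called in 1 direction, and are no result about these genes. Both routes named 8 of these genes. By library size only, 13 and 30 genes returned, of which 6 and 18 were among these 14 and 23. As the 3 libraries of each group serve in both the steps and the combined change, the rule itself fixes part of these counts.

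COL12A1, a fibril-associated collagen, and FBN2, a microfibril protein of the matrix, had risen by at least 2-fold with GFI1 in attached cells and fallen with suspension. FBN2 had 168, 182 and 178 CPM in attached control and 161, 161 and 182 CPM in floating GFI1 libraries, against 370 CPM in attached GFI1 and 41.0 CPM in floating control libraries on average (combined change -0.06 ± 0.05, SE, adjusted p = 0.24). FBN2 was called lower without floating GFI1 replicate 3 (-0.13, adjusted p = 0.0146) and still returned there, and its change was 0.086 by library size only. COL12A1 had 17, 20.6 and 21.8 against 16.9, 18.0 and 17.1 CPM, with 45.9 CPM in attached GFI1 and 4.08 CPM in floating control libraries. Its change of -0.20 ± 0.08 (SE, adjusted p = 0.0445) passed the test within the limit for a return, and lost the call when attached control replicate 2 or 3 or floating GFI1 replicate 1 or 3 was left out.

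DUSP8, a phosphatase of stress-activated kinases, took the same course, with 8.04, 7.28 and 9.99 against 9.65, 10.6 and 9.45 CPM (0.23 ± 0.11, SE, adjusted p = 0.074). It was called higher without attached control replicate 3 and by library size only. OGFRL1, a relative of the opioid growth factor receptor, had 33.0, 30.8 and 33.9 against 33.8, 31.5 and 33.1 CPM after 72.3 CPM in attached GFI1 libraries (0.01 ± 0.06, SE, adjusted p = 0.88), and it too was called higher by library size only.

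In the other direction, CDH17, the liver-intestine cadherin, LGR6, a receptor of R-spondins, and ARRDC3, an arrestin-domain adaptor of receptor traffic, fell with GFI1 and rose with suspension. CDH17 had 10.5, 10.4 and 9.93 CPM in attached control, 3.01 CPM in attached GFI1, 39.7 CPM in floating control and 9.98, 10.5 and 12.7 CPM in floating GFI1 libraries (0.11 ± 0.10, SE, adjusted p = 0.33), and it was called higher by library size only (0.26). ARRDC3 had 56.3, 56.8 and 57.5 against 49.5, 58.1 and 48.2 CPM (-0.13 ± 0.06, SE, adjusted p = 0.062), and it was called lower without floating GFI1 replicate 2 (-0.21). LGR6 had 12.9, 13.5 and 11.2 against 10.9, 9.59 and 12.8 CPM (-0.17 ± 0.10, SE, adjusted p = 0.14). Without floating GFI1 replicate 3 LGR6 was called lower (-0.29, adjusted p = 0.0174) and no longer returned along either route. The groups overlapped in all 3.

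STEAP3, a metalloreductase that reduces iron for uptake, met the rule with the least even replicates. It had 63.4, 64.6 and 65.8 CPM in attached control and 58.7, 83.6 and 32.1 CPM in floating GFI1 libraries. Its combined change was -0.16 ± 0.17 (SE), -0.51 without floating GFI1 replicate 2 and 0.14 without replicate 3, so its return rests on which of the floating GFI1 libraries are counted.

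Along the suspension route, MAOA, a mitochondrial amine oxidase, rose from 5.04 to 13.7 CPM on average in floating control and came back to 5.13, 5.90 and 5.42 CPM in floating GFI1 libraries (0.12 ± 0.14, SE, adjusted p = 0.48). PRRT1B, a membrane protein of the proline-rich transmembrane family, followed (0.11 ± 0.18, SE, adjusted p = 0.61). SOCS2, a suppressor of cytokine signalling, fell to 4.32 CPM in floating control and stood at 10.9, 14.6 and 10.8 CPM in floating GFI1 against 12.4, 11.4 and 13.1 CPM in attached control libraries (-0.03 ± 0.11, SE, adjusted p = 0.85). BCL6, named above as the exception among the study's replication genes in the combined comparison, belonged to the same route, as it rose to 53 CPM in floating control libraries. Of the 12 genes plotted, the combined change of COL12A1 alone passed the test.

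**Figure D4:**
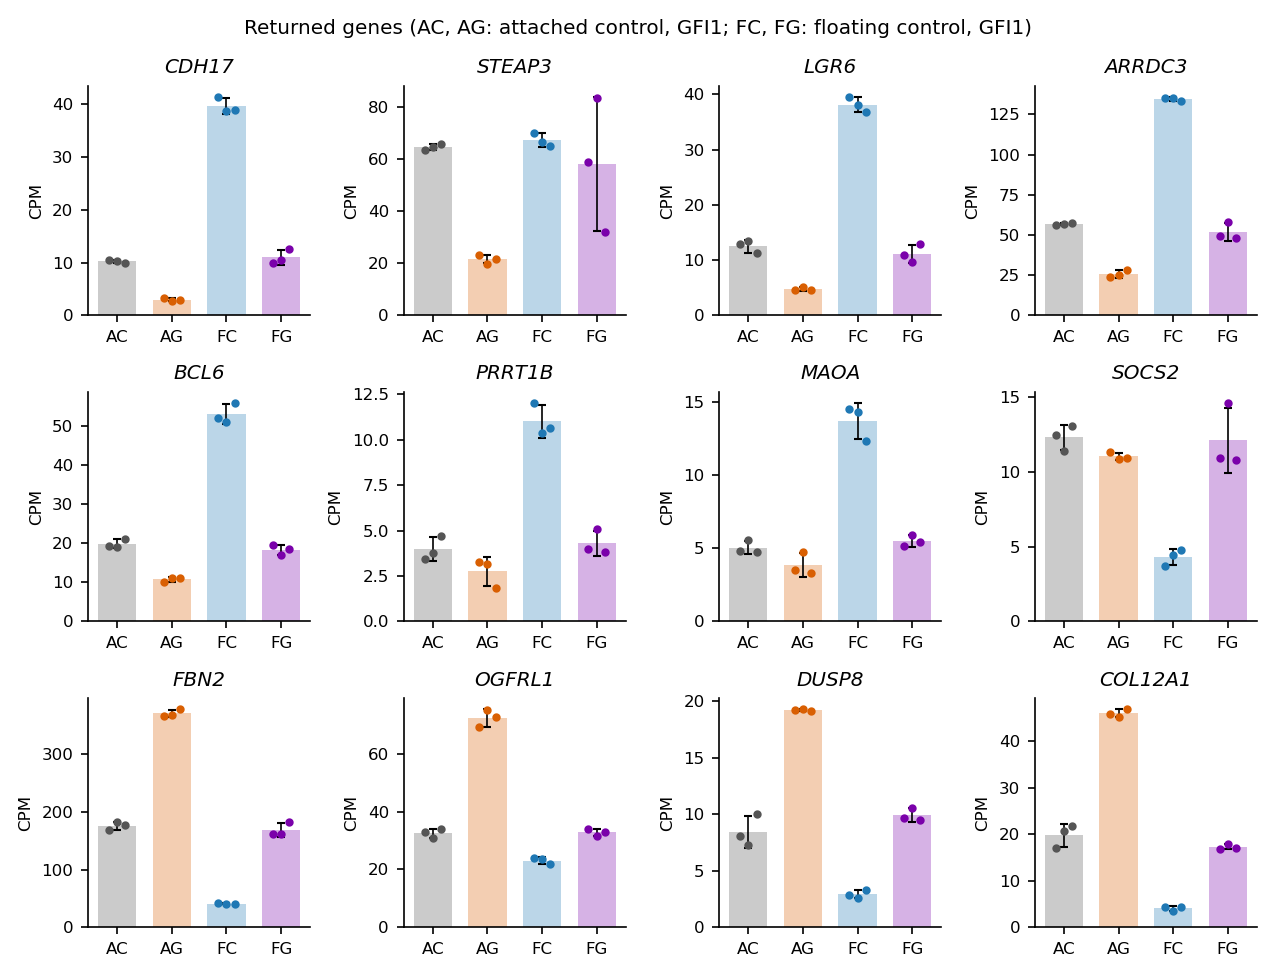
CPM (y axis, starting at 0) of 12 returned genes in attached control (AC), attached GFI1 (AG), floating control (FC) and floating GFI1 (FG) libraries, with bars at the mean, error bars of 1 SD (n = 3) and a point per library. The AC and FG bars stand at nearly equal heights, with AG or FC well above or below them, and the FG points of STEAP3 run from 32.1 to 83.6 CPM.

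The remaining question was whether the 2 separate changes added up. The interaction term, which equals the combined log2 change minus the sum of GFI1 in attached cells and suspension in control cells, passed the test in 1919 genes (10.8%), 848 (4.76%) above the sum and 1071 (6.01%) below it. GFI1 itself averaged 290 CPM in attached and 560 CPM in floating GFI1 libraries, so the term compares unlike levels of GFI1. The part of this difference in the term was not tested. NPTX1, a secreted pentraxin of synapses at chr17:80467148-80477843, stood furthest above. It had 21.4, 22.3 and 23.0 CPM in attached control, 188 CPM in attached GFI1 and 5.67 CPM in floating control libraries, but 661, 1027 and 309 CPM in floating GFI1 libraries. Suspension lowered it by 1.97 in control cells and raised it by 1.83 in GFI1 cells. The combined change of 4.90 ± 0.26 (SE) ran from 4.45 to 5.24 when each of the 6 libraries was left out.

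CPA4, a secreted carboxypeptidase, rose with GFI1 (by 3.47), fell with suspension (by 3.83 in control and 1.66 in GFI1 cells) and ended at 18.4, 18.5 and 19.7 CPM against 5.48, 4.94 and 5.68 CPM (1.82 ± 0.10, SE). ANKRD2, a muscle stretch-response gene, and PEAR1, a platelet receptor, fell less than the sum. PEAR1 was at 6.49, 5.49 and 5.68 CPM in attached control and 0.938, 0.827 and 0.696 CPM in floating GFI1 libraries, close to the 0.640 CPM that suspension alone left in control cells. GJB2, a gap junction connexin, fell to 0.0991 CPM with GFI1 in attached cells and stood at 0.552, 1.71 and 0.199 CPM in floating GFI1 libraries. Without floating GFI1 replicate 2 the combined change was -3.33 in place of -2.23 for GJB2 and -3.24 in place of -2.63 for ANKRD2.

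Below the sum stood FAM156A, CA9, KLRC3, TXNIP and TCN1. TXNIP, an inhibitor of thioredoxin and of glucose uptake, had 1.49, 1.68 and 1.55 CPM in attached control and 7.28, 6.12 and 8.31 CPM in floating GFI1 libraries (2.20 ± 0.18, SE), beside 7.07 CPM in attached GFI1 and 7.64 CPM in floating control libraries. TCN1, a vitamin B12 carrier, had 1.19, 0.652 and 0.689 against 76.4, 80.2 and 68.6 CPM (6.48 ± 0.12, SE), beside 59.8 and 4.13 CPM. CA9 and KLRC3, described above, also ended below the sum. FAM156A, whose reads may be split with its near-identical copy FAM156B, rested on floating control libraries that spread widely, and its combined change of 0.66 ± 0.52 (SE) did not pass the test (adjusted p = 0.26).

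**Figure D5:**
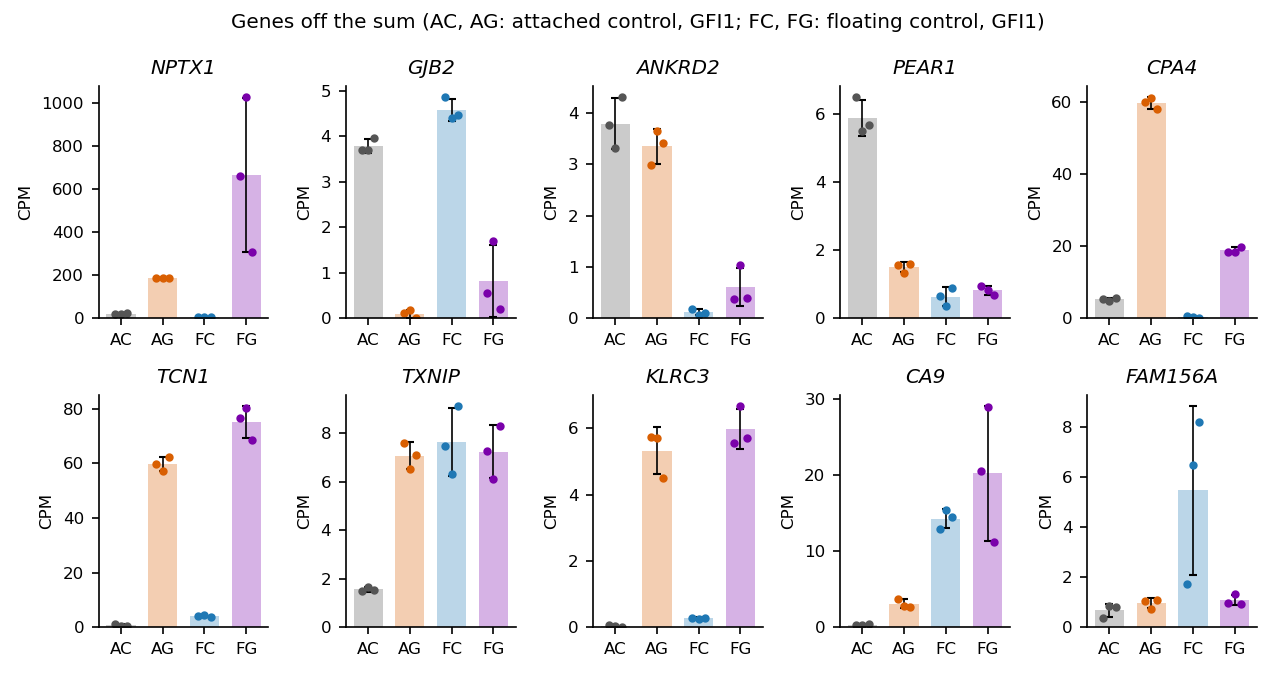
CPM (y axis, starting at 0) of the 5 genes furthest above (top row) and the 5 furthest below (bottom row) the sum of the separate log2 changes in attached control (AC), attached GFI1 (AG), floating control (FC) and floating GFI1 (FG) libraries, with bars at the mean, error bars of 1 SD (n = 3) and a point per library. NPTX1 is high in FG with 309 to 1027 CPM and low in FC, and TXNIP stands at like levels in AG, FC and FG.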

How the data were processed

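RNA-Seq of 12 A549 libraries (4 groups of 3, grouped by the sample labels) was analysed. The deposited values are raw counts of fragments per gene, which the authors made from poly-A selected RNA sequenced on an Illumina NovaSeq system. The paper names FastQC, Hisat2 and featureCounts with GRCh38, whereas the submitters' processing notes list Bowtie2 and HTSeq with hg38. The annotation release and the strandedness of counting are not given in the sources used here, so overlapping and antisense genes may share reads. Gene positions are those in the deposited table, and 27 names stored there as dates were replaced through the gene identifiers, of which 99.1% were found in the reference.

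Genes were kept by filterByExpr (minimum count 10, minimum total 15), which left 17829, scaled by TMM and fitted in R 4.3.3 with the quasi-likelihood test of edgeR 4.0.16, as 4 group means over the 12 libraries (biological coefficient of variation 4.86%). Two-sided p values were corrected by the Benjamini-Hochberg method over the genes of each comparison, with a threshold of 0.05. CPM values are TMM-scaled, and log2 CPM used a prior count of 2. Standard errors were derived from the F statistic of each gene. Total counts of 17014188 to 20748677 per library limit the precision of low genes, and a group at 0 counts was set to a floor of 3 counts over its 3 libraries together, and intervals on count ratios are exact at 95% and cover counting error only. The code was tested on simulated data.

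Genes were named by a rule that takes GFI1 and RASGRP2, the 10 highest and 10 lowest protein-coding genes without overlap, none with a mean log2 CPM under 1, up to 4 returned genes per route and direction, the 5 furthest above and below the sum, the called members with the highest and lowest change of each list, the study's adhesion and replication genes, and promoter windows from the top of the interferon and hypoxia lists. Other list members were chosen after their values were seen. Some items that the rule takes are not reported here. The members and lists were chosen with earlier results of these data known. The alternatives were DESeq2 1.42.0, RLE, upper quartile and library size scaling, other count filters, a replicate block, the 2 groups alone, other thresholds for a fold change and a return, and leaving out each library.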

Additional observations from a re-analysis of the deposited data

Results flagged for a closer look

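Tested by the interaction term of the edgeR quasi-likelihood fit, the change with suspension differed between GFI1 and control cells in 1919 genes. Among the named genes, the interaction log2 change was 3.80 for NPTX1, 2.63 for GJB2, 2.47 for ANKRD2, 2.30 for PEAR1 and 2.17 for CPA4, which ended above the sum of the separate changes. It was -2.83 for FAM156A, -2.57 for CA9, -2.48 for KLRC3, -2.23 for TXNIP and -1.97 for TCN1, which ended below it. The values of GJB2, ANKRD2 and KLRC3 rest on groups with few counts, and others have this limit too. Over the floating control libraries together, CPA4 had 19 counts and PEAR1 33. Over the attached control libraries, CA9 had 19, FAM156A 36 and TCN1 44. No group held more than 3 libraries, so no single library was tested as an outlier.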

How the results depend on the processing

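By library size only, the median of all genes rose from 0.018 to 0.17 on the log2 scale, and list medians moved with it. They became 1.73 for MHC class I presentation, -0.92 for DNA replication machinery, -0.72 for mitosis and kinetochore, -0.43 for cytosolic ribosome, -0.35 for mitochondrial ribosome, -0.20 for respiratory chain, nuclear genes, -0.011 for mitochondrially encoded mRNAs, -0.46 for cholesterol synthesis and uptake, 0.044 for unfolded protein and ATF4 stress, -0.20 for NRF2 antioxidant targets, -0.47 for aminoacyl-tRNA synthetases, 0.47 for integrins, -0.58 for focal adhesion and actin cytoskeleton, -1.01 for YAP and TEAD targets, -0.034 for collagen and laminin chains, -1.25 for fibrinogen and acute phase secreted proteins, -0.048 for ERK output, -0.48 for epithelial genes and cell junctions, 0.43 for p53 targets, 0.27 for BCL2 family, 0.48 for axon and neuroendocrine genes, -1.62 for adhesion genes named by the study and -1.05 for replication genes named by the study. The unfolded protein and ATF4 list changed sign there. In that setting 1 hypoxia gene and 5 p53 targets were called lower, and 4 mitochondrial ribosome and 9 respiratory chain genes higher. The combined changes of FBN2, ARRDC3, SOCS2 and BCL6 also changed sign there, to 0.086, 0.017, 0.12 and 0.034, each close to 0 by the rule that named them. A 2-fold threshold left 4073 called genes, 2220 higher and 1853 lower. A return limit of 0.3 left 6 and 9 returned genes for the GFI1-first and suspension-first routes, and a first step of 0.58 gave 88 and 122. When each of the 12 libraries was left out, the count of called genes ran from 11659 to 12313 (up to 12008 among the 6 compared) and that of genes off the sum from 1481 to 2090. Without each of the 6 compared, the medians ran from 2.45 to 2.82 for interferon, -0.67 to -0.59 for cholesterol, -0.64 to -0.59 for aminoacyl-tRNA synthetases, 0.20 to 0.52 for integrins, -0.27 to -0.13 for collagen and laminin, -1.51 to -1.31 for acute phase proteins, -0.65 to -0.53 for epithelial genes, 0.23 to 0.30 for p53 targets, -0.069 to 0.19 for the BCL2 family and 0.33 to 0.42 for axon genes, and 2 to 5 respiratory chain genes were called higher. The BCL2 family median changed sign to -0.041 without attached control replicate 3 and to -0.069 without floating GFI1 replicate 2. Returned genes that changed sign ran from -0.031 to 0.048 (OGFRL1), -0.0087 to 0.19 (CDH17), -0.51 to 0.14 (STEAP3), -0.017 to 0.24 (PRRT1B) and -0.17 to 0.053 (SOCS2). With a replicate block 12147 genes were called, 15 and 24 returned and 1904 were off the sum, and the same-numbered libraries did not deviate together (correlations of -0.031 to 0.031), so the numbers do not pair the samples. Of 1067 named-gene values under the alternatives, 1041 kept their direction and side of the threshold, 7 lost the call, 8 gained it and 11 changed sign. Beyond what the alternatives' own construction shows, the cause was not tested. Depth limits genes of few counts.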
